A study of Mus musculus with 10 samples.

Results

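Chemokines are small secreted or membrane-bound proteins that guide leukocytes along a concentration gradient. They are named by the spacing of their first cysteines (CC, CXC and CX3C) and act through G-protein-coupled receptors on the cells they attract. In the kidney they are made by injured tubule cells, by resident and infiltrating leukocytes and by endothelium, and many of their genes are textbook targets of NF-kB or of interferon signalling. The 10 chemokine ligand genes described here are Ccl2, Ccl5, Ccl7, Ccl20, Cxcl1, Cxcl2, Cxcl10, Cxcl16, Cxcl17 and Cx3cl1, out of 46517 gene IDs in the count tables. They were taken by symbol from a list that was drawn up with earlier results of these data known, so their counts of calls are a description and not an independent sample of chemokine genes. Each of the 10 matched 1 Ensembl ID and passed the filter on low counts, so none is left out. Ccl20, Cxcl2 and Cxcl17 held 10 counts or fewer in each reference library. They passed that filter only because of the risk allele libraries, where they were high.

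The study measured polyadenylated RNA of whole mouse kidney in 10 sequencing libraries with 4 genotype labels. The risk allele groups were G1-APOL1 (G1, n = 2) and G2-APOL1 (G2, n = 2), in which the kidney disease risk alleles of the human apolipoprotein L gene APOL1 were, per the series title, expressed in podocytes. The references were 3 kidneys labelled wild type (single mutant) and 3 labelled Control. The labels give no promoter, age, sex or strain, do not say what single mutant stands for, and leave unsaid whether every library came from its own mouse. A p-value here therefore reflects the spread among these libraries, which may be technical. Reads of the human transgene were not analysed here, and no check of the genotypes was made from them. All 4 risk allele libraries and wild type (single mutant) replicates 1 and 2 have titles that begin with G, whereas wild type (single mutant) replicate 3 and the 3 Control libraries have titles that begin with N.

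Libraries held 27596391 to 34815153 counts, so 3 counts correspond to 0.0862 to 0.109 counts per 1000000 (CPM). Kidney markers were present in every library: 6 proximal tubule markers summed to at least 2668 CPM in G1, 4979 CPM in G2, 11740 CPM in wild type (single mutant) and 11640 CPM in Control. Podocyte markers (5 genes) summed to 163.5 to 165.7 CPM in G1, 216 to 259 CPM in G2, 165 to 471 CPM in wild type (single mutant) and 144 to 328 CPM in Control. In bulk kidney, a larger number of cells of a type and more RNA per cell cannot be told apart.

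All 10 chemokine ligand genes rose in risk allele kidneys, taken as the mean of both alleles, against Control, where 19.3% of the 17823 genes tested were called higher. Against wild type (single mutant), 10 of 10 rose as well, where 20.6% of genes were called higher. Among the chemokine ligand genes outside the list, 12 of 25 tested rose against Control and 13 of 25 against wild type (single mutant). A gene was called at an adjusted p under 0.05 (edgeR, quasi-likelihood F test, Benjamini-Hochberg over all genes tested), and every adjusted p below comes from that fit unless another setting is named. Under scaling to library totals, the median of all genes shifted by 0.28 (log2) against Control, and 6037 genes were called higher and 1600 lower, where TMM scaling gave 3441 higher and 3212 lower. All 10 ligands were called higher under both scalings. The log2 fold changes ran from 0.79 (Cx3cl1) to 7.68 (Cxcl17) against Control, with a median of 3.66 against 0.00 over all genes tested, and from 0.86 (Cx3cl1) to 7.22 (Ccl20) against wild type (single mutant), with a median of 4.99. Both comparisons use the same 4 risk allele libraries. For each of the 10 genes the lowest risk allele library lay above the highest of the 6 reference libraries, which held for 16.4% of all genes tested (20.7% against Control alone and 21.6% against wild type (single mutant) alone).

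**Figure D1:**
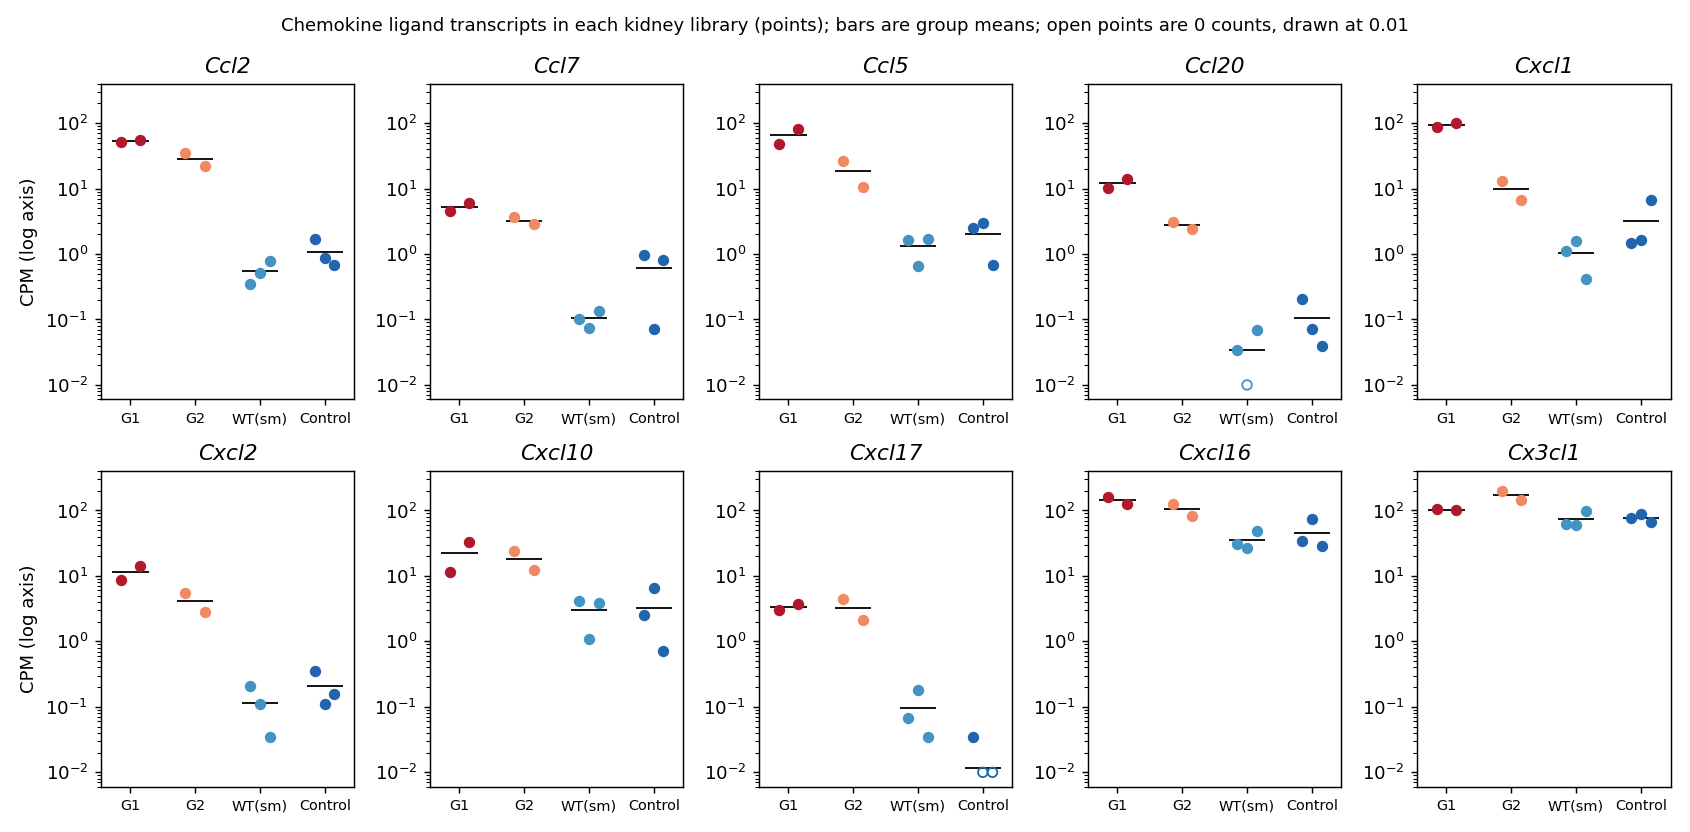
CPM on a log axis for each of the 10 chemokine ligand genes, with 1 point per library in G1, G2, wild type (single mutant), marked WT(sm), and Control. Horizontal bars are group means and open points are libraries with 0 counts. In each panel the 4 risk allele libraries lie above the 6 others, by wide gaps for Ccl2, Cxcl17, Ccl20 and Cxcl2 and by narrow ones for Cxcl1, Cx3cl1 and Cxcl16.

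Ccl2 and Ccl7 are neighbouring genes of the CC class and encode attractants of monocytes that act through the receptor CCR2. Ccl2 (ENSMUSG00000035385.5, GRCm38 chromosome 11, 82035571 to 82037453, plus strand) was at 51.3 and 55.4 CPM in G1 and at 35.3 and 22.0 CPM in G2. It was at 0.342, 0.511 and 0.784 CPM in wild type (single mutant) and at 1.67, 0.869 and 0.676 CPM in Control. Every risk allele library was far above the references, with 882 counts or more in each risk allele library and 48 or fewer in each reference library. Its log2 fold change with its standard error was 5.17 ± 0.37 against Control (adjusted p = 6.25e-05) and 6.15 ± 0.40 against wild type (single mutant) (adjusted p = 3.49e-05).

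Ccl7 (ENSMUSG00000035373.2, chromosome 11, 82045712 to 82047525, plus strand) was at 4.56 and 5.997 CPM in G1 and at 3.64 and 2.84 CPM in G2, against 0.103, 0.0731 and 0.136 CPM in wild type (single mutant) and 0.972, 0.0724 and 0.796 CPM in Control. Control replicates 1 and 3 (28 and 20 counts) stood above Control replicate 2 and all 3 wild type (single mutant) libraries (2 to 4 counts). Ccl7 rose by 2.75 ± 0.58 on the log2 scale against Control (adjusted p = 0.00636) and by 5.25 ± 0.72 against wild type (single mutant) (adjusted p = 0.000694).

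Ccl5 and Ccl20 are the other CC members. Ccl5 (ENSMUSG00000035042.2, chromosome 11, 83525778 to 83530518, minus strand), also known as RANTES, attracts T cells, monocytes and other leukocytes, in part through CCR1 and CCR3. It was at 48.6 and 80.7 CPM in G1 and at 26.2 and 10.7 CPM in G2, against 1.64, 0.658 and 1.67 CPM in wild type (single mutant) and 2.50, 2.93 and 0.676 CPM in Control. All 4 risk allele libraries were above the references, with the G2 libraries below both G1 libraries. Ccl5 rose by 4.07 ± 0.56 against Control (log2 scale, adjusted p = 0.000797) and by 4.70 ± 0.59 against wild type (single mutant) (adjusted p = 0.000462).

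Ccl20 (ENSMUSG00000026166.13, chromosome 1, 83116766 to 83119167, plus strand), the ligand of CCR6 on Th17 cells and some B and dendritic cells, was at 10.3 and 14.1 CPM in G1 and at 3.09 and 2.37 CPM in G2. It had 1, 0 and 2 counts in the wild type (single mutant) libraries and 6, 2 and 1 counts in the Control libraries, so the references lay near the floor of 3 counts. On the log2 scale Ccl20 rose by 5.67 ± 0.51 against Control (adjusted p = 0.000113) and by 7.22 ± 0.58 against wild type (single mutant) (adjusted p = 7.54e-05). From summed counts scaled by library totals, the ratio to wild type (single mutant) was 269, with an exact 95% interval from 91.8 to 1310 that covers counting error only.

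Cxcl1 and Cxcl2 encode CXC chemokines that attract neutrophils through CXCR2 and lie next to each other on chromosome 5. Cxcl1 (ENSMUSG00000029380.11, 90891241 to 90893115, plus strand) was at 86.8 and 100.1 CPM in G1 and at 13.2 and 6.68 CPM in G2, against 1.10, 1.57 and 0.409 CPM in wild type (single mutant) and 1.49, 1.63 and 6.57 CPM in Control. G1 stood far above G2, and Control replicate 3 lay just below the lower G2 library. On the log2 scale Cxcl1 rose by 3.25 ± 0.59 against Control (adjusted p = 0.00307) and by 4.89 ± 0.66 against wild type (single mutant) (adjusted p = 0.000663).

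Cxcl2 (ENSMUSG00000058427.9, 90903871 to 90905938, plus strand) was at 8.60 and 14.1 CPM in G1 and at 5.39 and 2.79 CPM in G2, against 0.205, 0.110 and 0.0341 CPM in wild type (single mutant) and 0.347, 0.109 and 0.159 CPM in Control. The lowest risk allele library was far above the highest reference. Its log2 fold change was 5.01 ± 0.53 against Control (adjusted p = 0.000223) and 5.82 ± 0.57 against wild type (single mutant) (adjusted p = 0.000147). Of the 50-base words in its transcripts, 5.84% also occur in Cxcl3, so a small part of the gene could share reads with that paralog.

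Cxcl10 (ENSMUSG00000034855.12, chromosome 5, 92346638 to 92348889, minus strand), an interferon-inducible attractant of T and NK cells that carry CXCR3, was at 11.5 and 33.1 CPM in G1 and at 24.3 and 12.3 CPM in G2. It was at 4.21, 1.10 and 3.85 CPM in wild type (single mutant) and at 2.50, 6.63 and 0.716 CPM in Control. The 2 G1 libraries enclosed both G2 libraries, and the reference libraries spread widely. For Cxcl10 the log2 fold change was 2.62 ± 0.76 against Control (adjusted p = 0.0250) and 2.72 ± 0.76 against wild type (single mutant) (adjusted p = 0.0203). The call against Control was lost without G1 replicate 2 (adjusted p = 0.0773), G2 replicate 1 (0.0611), Control replicate 1 (0.0853) or Control replicate 3 (0.0541). The call against wild type (single mutant) was lost without G1 replicate 2 (adjusted p = 0.0634), G2 replicate 1 (0.0503) or wild type (single mutant) replicate 2 (0.0648). Cxcl10 overlaps Art3 on the opposite strand, with 3.59% of its 50-base words in Art3 transcripts. Art3 averaged 1.46 ± 0.35 CPM in G1 and 3.23 ± 1.45 CPM in G2, against 3.66 ± 1.38 CPM in wild type (single mutant) and 4.87 ± 3.05 CPM in Control (SD).

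Sequence before the transcription start was available from RefSeq (GRCm38.p6) for 5 of the 10 genes (Ccl20, Cxcl1, Cxcl2, Cxcl10 and Cx3cl1), in windows from 250 bases before to 50 bases after the start. Motifs were searched on both strands: an NF-kB-type motif (GGGA and TTCC with any 2 bases between), an interferon-stimulated response element type motif (TTTC and TTTC with any 2 bases between) and an AP-1-type motif (TGANTCA). The NF-kB-type motif was found in 3 of the 5 windows (Cxcl1, Cxcl2 and Cxcl10), against 1.47% of 32851 promoter windows. In Cxcl1 and Cxcl2 the same GGGAATTTCCC stretch held overlapping matches on both strands, starting 71 and 97 bases before the start. The interferon-type motif (3.44% of windows) and the AP-1-type motif (7.81% of windows) were each found in 1 of the 5, Cxcl10. A match describes letters in the window and is not a measured binding site. The 250 bases before the start of these 3 genes are shown because they hold the matches, which are in capitals.
Cxcl1, chr5:90890995-90891244, plus strand: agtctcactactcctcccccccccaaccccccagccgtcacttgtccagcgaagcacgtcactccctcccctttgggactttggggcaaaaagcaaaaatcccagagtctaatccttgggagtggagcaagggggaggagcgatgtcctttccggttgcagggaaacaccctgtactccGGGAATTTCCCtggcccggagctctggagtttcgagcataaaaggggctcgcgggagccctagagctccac
Cxcl2, chr5:90903649-90903898, plus strand: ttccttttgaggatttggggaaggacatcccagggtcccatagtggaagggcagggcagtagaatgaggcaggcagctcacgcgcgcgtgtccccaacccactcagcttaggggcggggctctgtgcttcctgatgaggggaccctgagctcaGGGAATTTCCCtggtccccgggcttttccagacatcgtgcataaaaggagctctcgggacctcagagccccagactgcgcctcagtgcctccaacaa
Cxcl10, chr5:92348890-92349139, minus strand: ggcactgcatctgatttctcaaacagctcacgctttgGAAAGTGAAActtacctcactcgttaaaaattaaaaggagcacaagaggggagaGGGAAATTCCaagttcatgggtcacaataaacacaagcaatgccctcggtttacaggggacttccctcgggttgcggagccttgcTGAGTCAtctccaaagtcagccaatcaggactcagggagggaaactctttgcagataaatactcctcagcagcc

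Cxcl17 (ENSMUSG00000060188.5, chromosome 7, 25400053 to 25412886, minus strand) encodes a chemokine-like protein best known from mucosal epithelia. It was at 2.99 and 3.75 CPM in G1 and at 4.45 and 2.12 CPM in G2, which is 85 to 149 counts per library. The wild type (single mutant) libraries held 2, 5 and 1 counts and the Control libraries 1, 0 and 0 counts, so the transcript was at the floor in Control. For Cxcl17 the log2 fold change was 7.68 ± 0.76 against Control (adjusted p = 0.000165), a fitted value that rests on a single Control count, and 5.09 ± 0.58 against wild type (single mutant) (adjusted p = 0.000284). From summed counts scaled by library totals the ratio to Control was 322, with an exact 95% interval from 57.5 to 12700 for counting error only.

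Cxcl16 and Cx3cl1 encode the transmembrane chemokines, which hold leukocytes at the cell surface and are released by the proteases ADAM10 and ADAM17. Both were well above the counting floor in the references. Cxcl16 (ENSMUSG00000018920.10, chromosome 11, 70453983 to 70459984, minus strand) was at 159 and 128 CPM in G1 and at 124 and 83.5 CPM in G2, against 30.6, 26.8 and 47.9 CPM in wild type (single mutant) and 34.5, 73.4 and 28.9 CPM in Control. Control replicate 2 was the highest reference library and lay below G2 replicate 2. For Cxcl16 the log2 fold change was 1.42 ± 0.35 against Control (adjusted p = 0.0125) and 1.79 ± 0.36 against wild type (single mutant) (adjusted p = 0.00403). Without Control replicate 1 the call against Control was lost (adjusted p = 0.0510). The gene overlaps Zmynd15 on the opposite strand, with 16.9% of its 50-base words in Zmynd15 transcripts, and no source used here gives the strand setting of the counting. Zmynd15 averaged 23.4 ± 3.81 CPM in G1 and 16.4 ± 5.61 CPM in G2 (SD, n = 2 each), against 6.18 ± 1.81 CPM in wild type (single mutant) and 7.87 ± 6.95 CPM in Control (SD, n = 3 each). As the strand setting is not known, whether reads of the shared part were assigned to the right gene could not be checked.

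Cx3cl1 (ENSMUSG00000031778.11, chromosome 8, 94772009 to 94782427, plus strand), which encodes fractalkine, the ligand of CX3CR1 on monocytes and tissue macrophages, was at 105 and 102 CPM in G1 and at 198 and 146 CPM in G2. It was at 61.3, 60.5 and 98.4 CPM in wild type (single mutant) and at 76.1, 87.3 and 67.2 CPM in Control. The G1 libraries lay just above wild type (single mutant) replicate 3, while both G2 libraries were well above every reference. For Cx3cl1 the log2 fold change was 0.79 ± 0.19 against Control (adjusted p = 0.0122) and 0.86 ± 0.19 against wild type (single mutant) (adjusted p = 0.00784), the smallest of the 10 genes in each comparison.

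**Figure D2:**
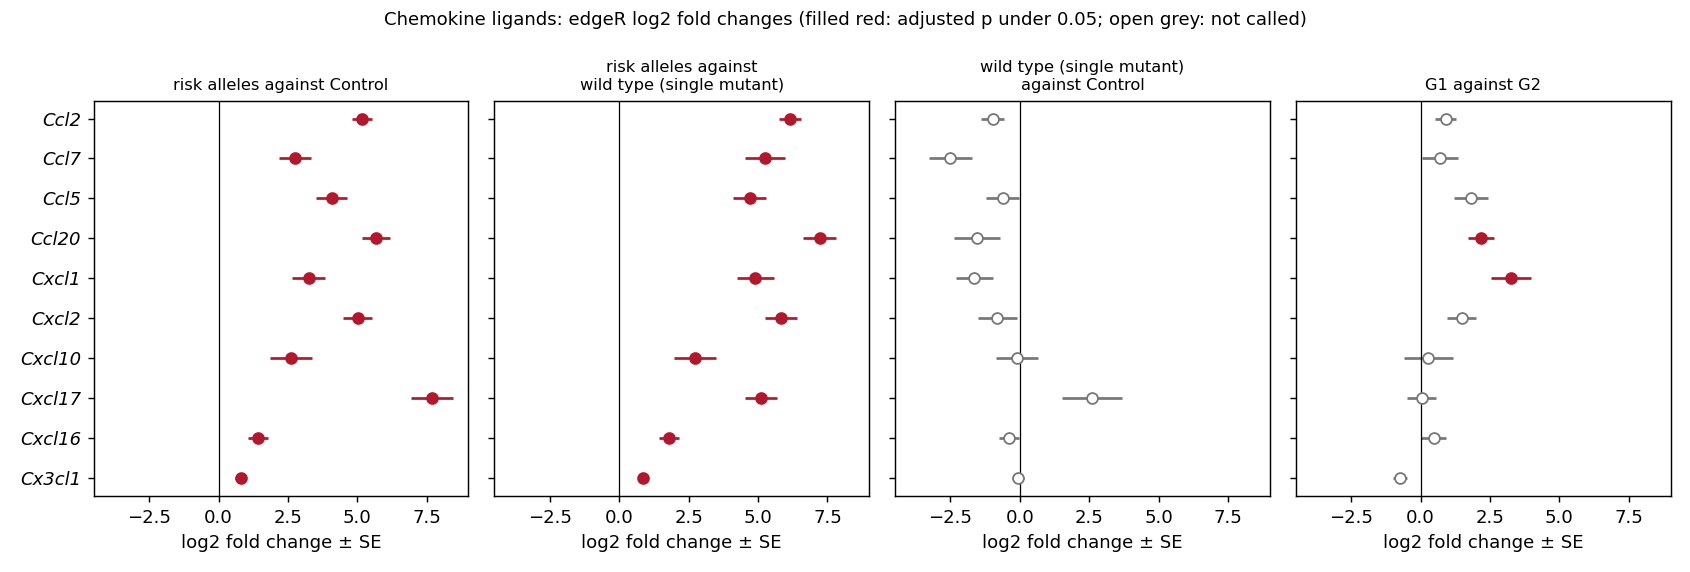
Log2 fold changes with standard errors of the 10 chemokine ligand genes in 4 comparisons. Filled red points have an edgeR adjusted p under 0.05 and open grey points do not. All 10 genes are called against each of the references, 0 between the references, and Ccl20 and Cxcl1 between G1 and G2.

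When the library titles' first letter was added to the fit as a term, 5 of the 10 genes (Ccl2, Ccl5, Ccl20, Cxcl16 and Cx3cl1) kept their call against Control. Over all 17823 genes tested, 1549 were called higher against Control with the term and 3441 without it. Cxcl1 then had a log2 fold change of 1.55 (adjusted p = 0.485) and Cxcl2 of 2.92 (adjusted p = 0.369). Ccl7 had 3.35 (adjusted p = 0.209), Cxcl10 3.15 (adjusted p = 0.157) and Cxcl17 5.93 (adjusted p = 0.122). Risk allele and Control titles share no first letter, so that fit reaches Control only through the wild type (single mutant) libraries. Against wild type (single mutant), where titles with G occur on both sides, 10 of 10 genes were called with the same term. Over all genes tested, 3507 were called higher in that comparison with the term and 3680 without it. Among the other genes named below, the calls of Ccl9, Ccl12, Ccl17, Ccl19, Ccr10, Ackr3, Ackr4, Adam10 and Adam17 against Control were lost with it. Without wild type (single mutant) replicate 3, the only N-titled library of its group, 10 of 10 ligands were called against wild type (single mutant) as well. Over all genes, 3511 were then called higher.

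Wild type (single mutant) against Control had 0 calls among the chemokine ligands in edgeR, with 0.0% of genes called higher and 0.0% lower, although 724 genes had an unadjusted p under 0.05 and DESeq2 called 2 higher and 12 lower. Under the 17 alternatives 0 ligands were called, although Ccl7, Ccl20, Cxcl2 and Cxcl17 were not tested in the fit of these groups alone. The log2 fold change was below 0 for 9 of the 10 genes, with a median of -0.72 against 0.00 over all genes tested, and 4 of the 10 had an unadjusted p under 0.05. The lowest was Ccl7, at -2.51 ± 0.77 (adjusted p = 1.0), where wild type (single mutant) libraries held 3, 2 and 4 counts and Control libraries 28, 2 and 20. Cxcl17 alone was above 0, at 2.59 ± 1.09 (adjusted p = 1.0) from 8 counts in wild type (single mutant) and 1 in Control. The libraries of both references overlapped for all 10 genes, while 4.08% of all genes had wild type (single mutant) wholly above Control and 3.73% wholly below.

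Between the risk alleles, Ccl20 and Cxcl1 were called higher in G1 than in G2, where 2.88% of genes were called higher and 3.84% lower. Ccl20 averaged 12.2 ± 2.73 CPM in G1 and 2.73 ± 0.508 CPM in G2 (SD, n = 2 each), a log2 fold change of 2.16 ± 0.47 (adjusted p = 0.0320). Cxcl1 averaged 93.4 ± 9.43 CPM in G1 and 9.91 ± 4.58 CPM in G2, a log2 fold change of 3.24 ± 0.72 (adjusted p = 0.0352). With 2 libraries per allele both calls were fragile: each was lost on leaving out any 1 of the 4 risk allele libraries, with adjusted p from 0.0672 to 0.173 for Ccl20 and from 0.0660 to 0.156 for Cxcl1, and also without wild type (single mutant) replicate 1 (0.0524 and 0.0561).

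The other 8 genes were not called between the alleles in the same edgeR fit. Ccl5 had a log2 fold change of 1.81 ± 0.62 (adjusted p = 0.115), Cxcl2 of 1.47 ± 0.52 (adjusted p = 0.121) and Ccl2 of 0.90 ± 0.37 (adjusted p = 0.176). With DESeq2, which called 1277 genes higher in G1, Ccl5 (adjusted p = 0.0251) and Cxcl2 (0.0384) were called higher. With limma voom, which called 830 genes higher, Ccl5 (adjusted p = 0.0270), Cxcl2 (0.0346) and Ccl2 (0.0300) were called higher. Cx3cl1 was the only gene with a negative value, at -0.73 ± 0.25 (adjusted p = 0.114), and both G1 libraries were below both G2 libraries. With the title's first letter as a term Cx3cl1 was called lower in G1 (edgeR adjusted p = 0.0378), as it was without wild type (single mutant) replicate 3 (0.0373). Both G1 libraries were above both G2 libraries for 7 of the 10 genes, where 26.7% of all genes lay wholly above and 29.2% wholly below. Cxcl10 (0.28 ± 0.89) and Cxcl17 (0.04 ± 0.53) overlapped between the alleles. Calls in the other direction occurred among related genes: of 25 other chemokine ligand genes 0 were higher in G1 and 2 lower (Cxcl14 at -1.68 ± 0.36, adjusted p = 0.0325, and Cxcl12 at -1.76 ± 0.44, adjusted p = 0.0475). Of 13 receptors Ccr1 was higher (1.64 ± 0.36, adjusted p = 0.0334) and Ccr7, the receptor of CCL19, lower (-2.20 ± 0.39, adjusted p = 0.0197). These 4 calls too were lost without any 1 of the 4 risk allele libraries. Cell type markers also differed between the alleles, and their part in these results was not tested. Of 7 injured tubule markers 3 were called higher in G1 (Krt20, Spp1 and Vcam1) and 0 lower, with a median log2 fold change of 1.52. Called lower in G1 were 3 of 6 fibroblast markers and 3 of 6 endothelial markers, with 0 endothelial markers called under scaling to library totals, while 0 of 10 macrophage markers were called. Among the 4 risk allele libraries, G1 replicate 2 was the highest for 7 of the 10 genes and G2 replicate 2 the lowest for 8.

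The make-up of the transcripts of the 10 listed ligands differed between groups. The 10 genes together summed to 489 and 536 CPM in G1 and 437 and 291 CPM in G2, against 99.6, 91.5 and 153 CPM in wild type (single mutant) and 120, 173 and 106 CPM in Control. The transmembrane pair Cxcl16 and Cx3cl1 made up 54.0% and 42.7% of that sum in G1 and 73.5% and 78.8% in G2. In the references the pair made up 92.3%, 95.4% and 95.4% of the sum in wild type (single mutant) and 91.9%, 92.9% and 90.9% in Control. Within these 10 genes, the soluble chemokines therefore held a larger share in each risk allele library than in any reference library. The 28 other chemokine ligand genes, left out of that sum, summed to 209.5 to 242.1 CPM in G1 and 435.6 to 440.9 CPM in G2. In the references they summed to 247.3 to 664.9 CPM in wild type (single mutant) and 461.8 to 745.9 CPM in Control. The shares given here therefore do not describe all chemokine ligands.

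**Figure D3:**
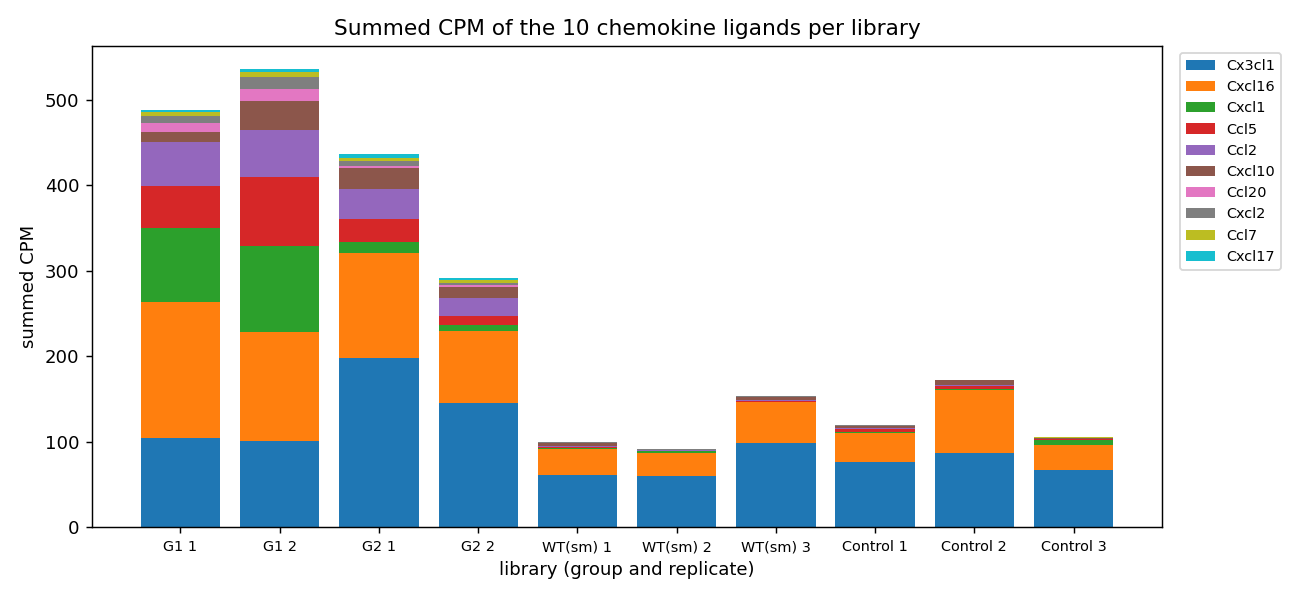
Summed CPM of the 10 chemokine ligand genes in each library, stacked by gene, with G1 and G2 at the left and wild type (single mutant), marked WT(sm), and Control at the right. The sum runs from 291 to 536 CPM in risk allele libraries and from 91.5 to 173 CPM in the others, where Cx3cl1 and Cxcl16 fill nearly the whole bar.

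Per 1000 exonic bases, which allows levels of different genes to be set side by side, the order of the genes changed as well. In G1 the highest mean level was that of Ccl5, at 67.3 ± 23.6 CPM per 1000 bases (SD, n = 2), and the spread of its 2 libraries reached Cxcl1 (49.8 ± 5.03), Cxcl16 (47.4 ± 7.32) and Ccl2 (46.9 ± 2.54). These 4 genes were therefore not separated, and Cx3cl1 followed at 26.3 ± 0.645. The other 5 genes lay between 4.43 (Cxcl17) and 9.90 (Cxcl10) CPM per 1000 bases in G1. In G2 the order began with Cx3cl1 (43.7 ± 9.29) and Cxcl16 (34.3 ± 9.36), which did not differ beyond their spread, and went on with Ccl2 (25.2 ± 8.28) and Ccl5 (19.3 ± 11.4). Cxcl1 was sixth in G2, at 5.29 ± 2.44 CPM per 1000 bases. In wild type (single mutant), Cx3cl1 (18.7 ± 5.51) and Cxcl16 (11.6 ± 3.72) led, and the next level was 1.38 ± 0.601 (Ccl5). In Control, Cx3cl1 (19.6 ± 2.56) and Cxcl16 (15.1 ± 8.02) led, and the next was Ccl5 at 2.12 ± 1.25 CPM per 1000 bases.

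Some receptors of these ligands were higher too and others were not called. Of 18 typical chemokine receptor genes 13 were tested, and 7 rose, 1 fell and 5 were not called against Control, with a median log2 fold change of 1.34. Ccr2, the receptor of CCL2 and CCL7, averaged 54.2 ± 2.26 CPM in G1 and 25.6 ± 12.9 CPM in G2 (SD, n = 2 each), against 3.22 ± 0.898 CPM in wild type (single mutant) and 4.78 ± 2.98 CPM in Control (SD, n = 3 each), a log2 fold change of 2.96 ± 0.47 against Control (adjusted p = 0.00159). Ccr1, which binds CCL5, rose by 3.35 ± 0.32 (log2) against Control (adjusted p = 0.000145). Ccr3, which also binds CCL5, was below the filter, with 10 counts in G1, 7 in G2, 4 in wild type (single mutant) and 1 in Control. Cx3cr1, the receptor of fractalkine, averaged 28.4 ± 11.6 CPM in G1 and 27.4 ± 8.71 CPM in G2, against 3.32 ± 1.36 CPM in wild type (single mutant) and 3.29 ± 1.67 CPM in Control, and rose by 3.08 ± 0.43 (log2) against Control (adjusted p = 0.000818).

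Receptors of the remaining ligands were below the filter or not called against Control. Cxcr2, the neutrophil receptor of CXCL1 and CXCL2, was below the filter, with 17 counts in G1 and 14 in G2, against 8 in wild type (single mutant) and 2 in Control. Ccr6, the receptor of CCL20, was not called, at 0.193 ± 0.0236 CPM in G1 and 0.424 ± 0.14 CPM in G2, against 0.0935 ± 0.0533 CPM in wild type (single mutant) and 0.181 ± 0.122 CPM in Control (log2 fold change 0.64 ± 0.53 against Control, adjusted p = 0.369). Cxcr3, the receptor of CXCL10, and Cxcr6, the receptor of CXCL16, had log2 fold changes of 1.16 ± 0.67 (adjusted p = 0.206) and 0.95 ± 0.49 (adjusted p = 0.163) against Control. Ccr10, the receptor of CCL28 and CCL27, fell with a log2 fold change of -1.60 ± 0.40 (adjusted p = 0.0132), a call that was lost without Control replicate 2. Against wild type (single mutant), 10 of the 13 receptors rose and 0 fell. They included Cxcr6 at 1.75 ± 0.52 (adjusted p = 0.0255), whose call was lost without either G1 library, G2 replicate 1, or wild type (single mutant) replicate 1 or 2.

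**Figure D4:**
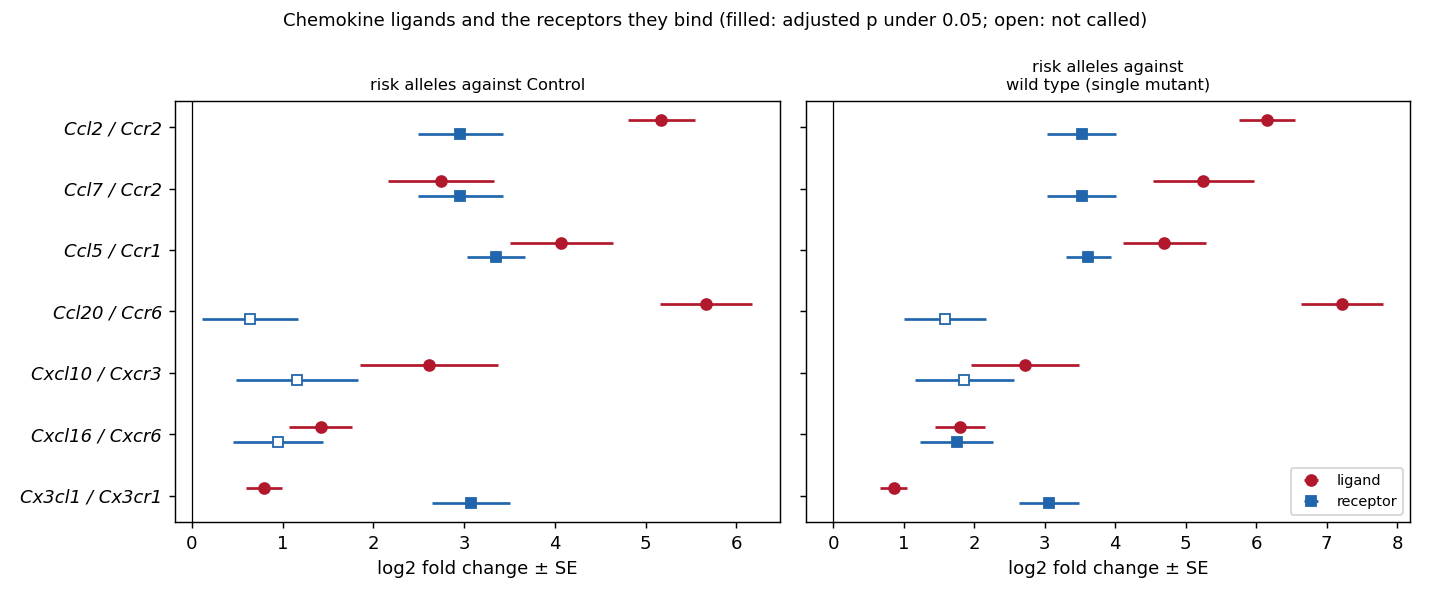
Log2 fold changes with standard errors of chemokine ligands (circles) and of some receptors they bind (squares), for risk alleles against Control on the left and against wild type (single mutant) on the right. Filled symbols have an adjusted p under 0.05. Ccr2, Ccr1 and Cx3cr1 are filled in both panels, Cxcr6 only against wild type (single mutant), and Ccr6 and Cxcr3 in neither.

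Not every chemokine gene was higher in the risk allele kidneys. Of 28 other chemokine ligand genes, 25 were tested, and 12 rose, 3 fell and 10 were not called against Control, with a median log2 fold change of 0.74. The rises with the lowest p were Ccl17 (4.51 ± 0.60), a ligand of CCR4 made by dendritic cells, Ccl12 (2.96 ± 0.41), a mouse ligand of CCR2, Ccl9 (2.74 ± 0.45), a ligand of CCR1, and Ccl22 (2.97 ± 0.53), the second ligand of CCR4. Their adjusted p ran from 0.000644 (Ccl17) to 0.00265 (Ccl22). Cxcl12, the CXCR4 ligand that is constitutively made by stromal cells, averaged 69.0 ± 13.4 CPM in G1 and 233 ± 37.1 CPM in G2, against 357 ± 166 CPM in wild type (single mutant) and 418 ± 97.1 CPM in Control. Cxcl12 fell with a log2 fold change of -1.72 ± 0.32 against Control (adjusted p = 0.0036). Ccl19, a ligand of CCR7, fell with -2.95 ± 0.70 (adjusted p = 0.0108), with 2 summed counts in G1 and 20 in G2, against 27 in wild type (single mutant) and 59 in Control. Ccl28, an epithelial ligand of CCR10, fell with -2.84 ± 0.81 (adjusted p = 0.0238), a call lost with limma voom and without any 1 of the 4 risk allele libraries or Control replicate 3. Against wild type (single mutant) 13 of the 25 rose and 2 fell.

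Atypical receptors, which take up chemokines without signalling for migration, had 0 rises and 2 falls among 4 tested genes of 5 against Control. Ackr4, which removes CCL19 and CCL21, fell with -1.10 ± 0.26 (adjusted p = 0.00985), and Ackr3, which removes CXCL12, with -0.54 ± 0.18 (adjusted p = 0.0438), a call lost without any 1 of the risk allele libraries, wild type (single mutant) replicate 1 or 2, or Control replicate 1. Under scaling to library totals, Ackr3 was not called either and 1 of the 4 genes fell. The protease gene Adam10 averaged 168 ± 17.7 CPM in G1 and 112 ± 10.5 CPM in G2, against 79.8 ± 2.39 CPM in wild type (single mutant) and 84.4 ± 10.2 CPM in Control, and rose by 0.70 ± 0.11 (log2) against Control (adjusted p = 0.0012). Adam17 rose by 0.26 ± 0.09 (adjusted p = 0.0454), a call lost without any 1 of 7 libraries (either G1 library, G2 replicate 2, wild type (single mutant) replicate 1 or any Control library), and was not called against wild type (single mutant) at 0.16 ± 0.09.

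Among 29 inducers and transcription regulators of chemokine genes, 25 were tested, and 18 rose, 0 fell and 7 were not called against Control, with a median log2 fold change of 1.08. Those with the lowest p were the NF-kB subunit genes Relb (2.64 ± 0.18, adjusted p = 4.86e-05) and Nfkb2 (2.01 ± 0.15, adjusted p = 7.05e-05), Nfkbiz, an NF-kB cofactor (1.93 ± 0.15, adjusted p = 7.05e-05), and the interferon-gamma receptor chain gene Ifngr2 (1.67 ± 0.13, adjusted p = 7.15e-05). Relb averaged 56.3 ± 1.57 CPM in G1 and 30.7 ± 8.85 CPM in G2, against 6.17 ± 0.884 CPM in wild type (single mutant) and 6.66 ± 0.749 CPM in Control. Against wild type (single mutant) 22 of the 25 rose and 0 fell. Between the alleles 8 of the 25 were called higher in G1 and 0 lower, where 2.88% of all genes were called higher and 3.84% lower.

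Markers of some cell types rose with the chemokine ligands while those of others did not or fell, and their part in these results was not tested. All 10 macrophage markers rose against Control, and their sum was 822 to 979 CPM in G1 and 751 to 1108 CPM in G2, against 140 to 178 CPM in wild type (single mutant) and 158 to 223 CPM in Control. All 7 injured tubule markers rose as well, with sums of 20340 to 29450 CPM in G1 and 4602 to 8392 CPM in G2, against 725 to 1284 CPM in wild type (single mutant) and 650 to 1158 CPM in Control. Of 10 T and NK cell markers 5 rose and 0 fell, with sums of 15.03 to 23.46 CPM in G1 and 24.4 to 35.0 CPM in G2, against 8.86 to 17.5 CPM in wild type (single mutant) and 8.68 to 15.5 CPM in Control. Of 8 neutrophil markers 3 were tested and rose, while Ly6g, Mpo, Elane, Retnlg and Camp were at 0 counts in at least 1 library and below the filter. All 8 neutrophil markers together summed to 4.12 to 6.27 CPM in G1 and 4.29 to 5.75 CPM in G2, against 0.992 to 1.67 CPM in wild type (single mutant) and 1.08 to 2.35 CPM in Control. Within that sum Csf3r averaged 3.19 CPM in G1 and 3.77 CPM in G2, against 0.822 CPM in wild type (single mutant) and 0.957 CPM in Control.

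Against Control, 3212 of the 17823 genes tested were called lower. Of 6 endothelial markers 0 rose and 1 fell, of 5 B cell markers 0 rose and 0 fell, and of 6 fibroblast markers 3 rose and 0 fell against Control. All 6 proximal tubule markers fell, as did 4 of 5 markers of the thick limb and distal tubule and 2 of 6 of the collecting duct, while 0 of 5 podocyte markers were called. Markers of adipose tissue, liver, lung or stomach mucosa had 0 rises and 1 fall among 5 tested of 8. Under scaling to library totals, 0 endothelial markers fell, 1 B cell marker rose and 3 of the 5 thick limb and distal tubule markers fell against Control. Against wild type (single mutant), 20.6% of all genes tested were called higher and 19.3% lower. There 0 of 5 podocyte markers rose and 1 (Nphs1) fell, a call absent under scaling to library totals. Of 5 B cell markers 1 (Cd79b) rose and 0 fell in that comparison.

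The genes nearest to each ligand in their profile over the 10 libraries were found by the root mean square difference of log2(CPM + 0.1). Each gene's Control mean was subtracted first. Compared were genes outside the 10 ligands that passed the filter on low counts and averaged at least 1 CPM. Genes without a symbol or with Gm or Rik names were passed over. Ccl2 was nearest to Cd44 (0.474), which encodes a hyaluronan receptor, and Ccl20 to Cd44 (0.359) and the adhesion molecule gene Vcam1 (0.466). Cxcl2 was nearest to Col17a1 (0.481) and then Cd44 (0.523), Ccl5 to Tmem121 (0.419), and Ccl7 to Fut2 (0.451). Cxcl17 was nearest to Serpina10 (0.424), and Cxcl10 to Spib (0.540) and to Itgax (0.576), which encodes the integrin chain CD11c. Cxcl1 had no close neighbour among the genes compared: its nearest genes, Fosl1 and Areg, lay at 1.03 and 1.05. The transmembrane ligands, whose changes were small, had the closest neighbours, Tlr6 at 0.159 for Cxcl16 and Rftn1 at 0.125 for Cx3cl1. Among the 10 ligands themselves, Ccl2 and Ccl20 were the closest pair (0.485), followed by Ccl20 and Cxcl2 (0.528).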

How the data were processed

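The submitters' processing notes name STAR 2.4.1d, HTSeq 0.6.1, Trim Galore, FastQC, CASAVA 1.8.2 and build GRCm38; no source used here gives their settings, the annotation release or the strand setting. The authors deposited 1 table per library, holding whole-number read counts per Ensembl gene, unnormalized. Of 46517 IDs, 46005 matched GENCODE M21 (GRCm38), which gave symbols, coordinates and exonic lengths. Groups follow the genotype label, and replicate numbers follow accession order.

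With edgeR 4.0.16 (R 4.3.3), genes were filtered by filterByExpr (minimum count 10), scaled by TMM and fitted once over all 10 libraries with a mean per group, giving 4 comparisons. CPM use TMM-scaled library sizes, and SE comes from the fold change and its F statistic. The fit was tested on simulated data. Alternatives were DESeq2 1.42.0, limma 3.58.1 voom, other scalings, no filter, only the groups compared, the title's first letter as a term, and each library left out. The members and all gene lists were chosen with earlier results of these data known. All chemokine ligands, Adam10, Adam17 and the ligands' receptors are named, except 1 item that is not reported here, and from each other list the called genes with the lowest p against Control, up to 4 per direction. Intervals and floors cover counting error only. Protein sequences were not used here. Tables and figures were made with Python 3.11.15, pandas 2.3.3, scipy 1.17.1 and matplotlib 3.10.9.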

Additional observations from a re-analysis of the deposited data

Results flagged for a closer look

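G1 and G2 were called different for Ccl20 and Cxcl1 by the test of the difference itself, with log2 fold changes of G1 against G2 of 2.16 and 3.24 in edgeR. Each of these differences rests on 2 libraries per allele, and each call was lost without any 1 of the 4 risk allele libraries or wild type (single mutant) replicate 1, with adjusted p from 0.0524 to 0.173 for Ccl20 and from 0.0561 to 0.156 for Cxcl1. No group has 4 or more libraries, so no library was tested as standing apart from its own group.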

How the results depend on the processing

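No paired analysis was possible because replicate numbers were given in accession order and do not pair libraries. Under 17 alternatives the direction held for all 10 ligands in both comparisons of the risk alleles with a reference. The call held in 160 of 170 such fits against Control and in 167 of 170 against wild type (single mutant), and the report names the calls lost. With library totals alone, 6037 genes were called higher and 1600 lower against Control, and 6226 higher and 1710 lower against wild type (single mutant), where the median of all genes shifted by 0.29 (log2). With the title's first letter as a term, 1549 genes were called higher and 1293 lower against Control, with 5 ligands called. Leaving out each library gave 2128 to 3360 genes called lower against Control.

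For wild type (single mutant) against Control, 2 genes were called higher and 12 lower with DESeq2, 2 higher and 5 lower with the title term, 4 lower with no filter, and 0 to 1 in each direction on leaving out a library. The uncalled log2 fold change of Cxcl10 became 0.17 with voom and 0.23 with the title term, that of Cxcl16 0.071 and that of Cx3cl1 0.36 with the title term. On leaving out a library these ran from -0.57 to 0.91 (Cxcl10), from -0.67 to 0.15 (Cxcl16) and from -0.34 to 0.056 (Cx3cl1).

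For G1 against G2, DESeq2 called 1277 genes higher and 1222 lower with 4 ligands called, voom 830 higher with 5 ligands called, and the fit of G1 and G2 alone 451 lower. Leaving out a library gave 11 to 591 higher, 11 to 850 lower and 0 to 3 ligands called, with 11 genes in each direction without G1 replicate 2. The uncalled log2 fold changes ran from -0.62 to 0.93 (Cxcl10) and from -0.36 to 0.75 (Cxcl17). The cause of these changes was not tested. Ligands with under 10 counts in the references have fold changes that rest on few reads.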
